A study of Mus musculus with 11 samples.

Results

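Lypd8, Saa1, Saa2, Saa3, Lcn2 and Pla2g5 are 6 of the 31168 named genes counted in distal ileum from mice treated with dextran sodium sulfate, a polysaccharide that injures the intestinal lining. They were taken by symbol as inducible secreted defence and acute phase genes of the ileum, with no measured value in the rule. The choice was made with earlier results of these data known. The dIEC libraries came from 5 mice of genotype H2-Ab1 fl/fl; Villin:Cre+, in which the villin promoter limits Cre, and with it the loss of the floxed H2-Ab1 alleles, to intestinal epithelial cells. The WT libraries came from 6 mice of genotype H2-Ab1 fl/fl; Villin:Cre-, so the floxed alleles and the dextran sodium sulfate were common to both groups. The H2-Ab1 product is 1 of the 2 chains of I-A, an MHC class II molecule. Each library was total RNA of 2 cm of whole ileum, so every value mixes epithelium, immune cells, connective tissue and muscle. The age of the mice and the dose and time of treatment are absent from the labels. In whole tissue, fewer cells of a type and less RNA per cell cannot be told apart.

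Serum amyloid A proteins are small lipid- and retinol-binding proteins made in large amounts by the liver in the acute phase response, and the gut epithelium makes them too when bacteria attach to it. In the mouse ileum their induction is known to run through interleukin 22 from group 3 innate lymphocytes and through STAT3, NF-kB and C/EBP factors in the epithelium. Lcn2 binds bacterial siderophores and so withholds iron, and its protein in faeces is a usual measure of gut inflammation. Lypd8 is a glycoprotein of the Ly6/PLAUR family that is shed from the epithelial surface and binds flagellated bacteria, best known from the colon. Pla2g5 is a secreted phospholipase A2, which releases fatty acids from phospholipids. Saa1, Saa2 and Saa3 stand in 1 cluster on chromosome 7 (GRCm38, GENCODE vM21), at 46740497 to 46742980 on the minus strand, 46751790 to 46754313 on the plus strand and 46711998 to 46715700 on the minus strand. Lypd8 lies on chromosome 11 at 58379043 to 58390728 on the plus strand, and Lcn2 on chromosome 2 at 32384633 to 32388252 on the minus strand. Pla2g5 lies on chromosome 4 at 138799244 to 138863482 on the minus strand.

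The 250 bases before the RefSeq start of Saa1, Saa2 and Saa3 are printed because each holds 1 match of the C/EBP motif, the only motif of those searched that any of the 6 genes' windows holds. Lcn2 holds 1 match too. The sequences are RefSeq's (GRCm38.p6), on the strand of the gene, 5′ to 3′, and the capitals mark the letters TTGCNNAA or their reverse complement. They cover chr7:46742981-46743230 (Saa1, minus strand), chr7:46751583-46751832 (Saa2, plus strand) and chr7:46715677-46715926 (Saa3, minus strand). RefSeq's starts are not those of the GENCODE genes given above in every case. RefSeq starts Saa1 at the same base, Saa2 43 bases inside the GENCODE gene, Saa3 24 bases inside and Lcn2 513 bases inside, so that the window of Lcn2 (chr2:32387740-32387989, minus strand) lies within that gene.
Saa1: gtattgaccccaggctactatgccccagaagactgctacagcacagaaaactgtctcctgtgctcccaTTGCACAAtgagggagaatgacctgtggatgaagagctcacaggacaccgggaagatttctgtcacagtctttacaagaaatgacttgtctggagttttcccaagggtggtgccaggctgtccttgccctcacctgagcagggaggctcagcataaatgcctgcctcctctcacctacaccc
Saa2: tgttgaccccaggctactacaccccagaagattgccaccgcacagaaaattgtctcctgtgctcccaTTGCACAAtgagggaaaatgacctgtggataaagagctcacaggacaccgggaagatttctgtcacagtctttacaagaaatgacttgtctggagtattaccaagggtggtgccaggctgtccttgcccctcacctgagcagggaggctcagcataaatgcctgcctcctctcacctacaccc
Saa3: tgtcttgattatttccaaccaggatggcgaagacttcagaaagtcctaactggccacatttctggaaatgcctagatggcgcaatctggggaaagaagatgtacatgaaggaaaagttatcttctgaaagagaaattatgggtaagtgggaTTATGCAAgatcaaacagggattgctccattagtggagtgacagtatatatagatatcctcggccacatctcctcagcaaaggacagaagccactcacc
The match began 182 bases before the RefSeq start in Saa1, 183 in Saa2, 99 in Saa3 and 216 in Lcn2. Of 32841 promoters of the same length, 9.57% held the letters TTGCNNAA on either strand. Neither annotated promoter of Lypd8 nor of Pla2g5 held them. The STAT letters TTCNNNGAA (7.02% of promoters), the NF-kB consensus (7.25%) and TATAAA (12.4%), searched on both strands, were in none of the 6 genes' windows, and the 4 motifs share no overlapping match here. The Saa1 and Saa2 windows were 94.8% identical, with 238 bases matched, while those of Saa1 and Saa3 were 48.9% identical.

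Total counts were 6603965 to 9681698 per library, and protein-coding genes other than the highly counted Lars2 held 1510296 to 3215574 of them. Ribosomal rows took 50.1 ± 7.33% of the counts in dIEC and 45.3 ± 6.11% in WT (SD, n = 5 and 6, exact permutation p = 0.273). The deleted gene itself, H2-Ab1, had 26.0 ± 9.87 CPM (counts per 1000000 counts of the scaled library) in dIEC and 83.1 ± 27.4 CPM in WT, with no overlap (exact permutation p = 0.00433, the smallest the design allows; edgeR adjusted p = 0.361). All 15 epithelial marker genes were counted, with a summed level of 3106 to 4153 CPM in dIEC and 2536 to 4357 CPM in WT. Of 9 colon genes 4 had rows, and Car1, an abundant colonic gene, had 0 counts in dIEC and 42 in WT. Of the 6 members 5 passed the filter on low counts, while Saa2 did not, with 89 counts over all libraries. dIEC replicate 1 and WT replicate 8 stood apart from their groups for several members, and the results that rest on them are given with and without them. Both were singled out on the members' own values, so results without them describe the data and are not independent tests.

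None of the 5 tested members passed edgeR's quasi-likelihood test at an adjusted p of 0.05, where 0.00628% of the 15911 genes tested did (1 gene). DESeq2, which called 0.0566% of genes higher, and limma voom, which called 0.00628% higher, called 0 of the 5 as well. All 5 had a log2 fold change above 0, dIEC against WT, as did 48.8% of all genes, and their median was 1.24 against -0.0071 over all genes. The unadjusted p was under 0.05 for 4 of the 5 (Lypd8, Saa3, Lcn2 and Pla2g5), against 4.87% of all genes in that direction. Without dIEC replicate 1 it was under 0.05 for 1 of the 5 (Pla2g5, 3.15% of all genes). Without WT replicate 8 it was so for 4 (Lypd8, Saa1, Saa3 and Pla2g5, 11.2% of all genes), and without both for 3 (Lypd8, Saa1 and Pla2g5, 9.54%). Because the members were chosen with earlier results of these data known, their shares beside those of all genes are no test of the list. For none of the 6 members did all dIEC libraries lie above all WT libraries, as 0.233% of genes tested did. The levels of each member by library are shown in the plot of CPM by group.

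**Figure D1:**
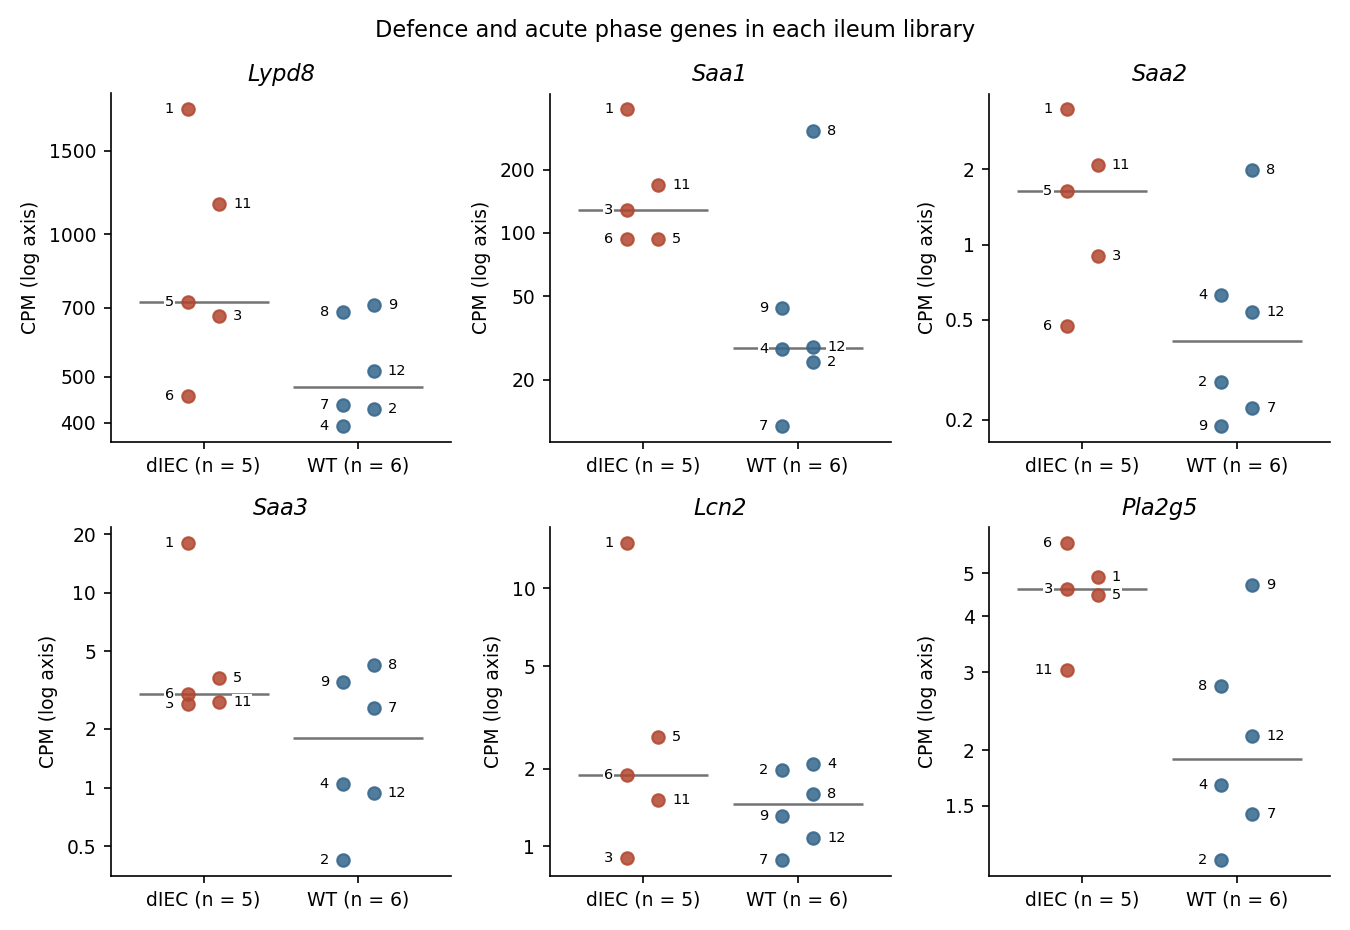
CPM on log axes for the 6 genes in 5 dIEC and 6 WT ileum libraries; each point is 1 library with its replicate number and the line is the group median. Replicate 1 is the highest dIEC library for every gene but Pla2g5, and WT replicate 8 lies with the dIEC libraries for Saa1 and Saa2.

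Most serum amyloid A counts of the ileum were assigned to Saa1, with its split from Saa2 uncertain. Saa1 held 96.0% of the 3 Saa genes' counts, Saa3 held 3.16% and Saa2 0.885%. Saa1 had 389, 129, 93.9, 93.2 and 169 CPM in dIEC replicates 1, 3, 5, 6 and 11, against 24.3, 28.0, 11.98, 307, 43.8 and 28.8 CPM in WT replicates 2, 4, 7, 8, 9 and 12. All dIEC libraries lay above 5 of the 6 WT libraries, and WT replicate 8 lay above 4 of the 5 dIEC libraries. The group medians were 129 CPM in dIEC and 28.4 CPM in WT, and the means 175 ± 124 and 73.9 ± 115 CPM (SD, n = 5 and 6). Its log2 fold change was 1.24 (standard error 0.83, 95% interval -0.61 to 3.09, edgeR adjusted p = 0.584), and the exact permutation test of the mean CPM gave p = 0.225. On the log2 scale the same test gave a difference of 1.95 at exact permutation p = 0.0390, not adjusted over members or scales.

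WT replicate 8 was singled out for its own high Saa1 level, so the values without it are no independent test of Saa1. Without WT replicate 8, Saa1 averaged 175 CPM in dIEC and 27.4 ± 11.4 CPM in the other 5 WT libraries, a ratio of 6.39. The groups then did not overlap, at a lowest dIEC library of 93.2 CPM and a highest WT library of 43.8 CPM, as was so for 2.19% of genes tested. Without that library edgeR gave a log2 fold change of 2.67 (standard error 0.50) and an adjusted p of 0.0421, where 1.35% of genes were called higher. Saa1 was the only member called. With dIEC replicate 1 left out as well it was 2.15, at an edgeR adjusted p of 0.0565 (0.0433% of genes called higher), and without dIEC replicate 1 alone 0.72. Over 23 alternative settings the log2 fold change of Saa1 ran from 0.56 to 2.67, all above 0.

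WT replicate 8 was also the highest WT library for markers of the villus enterocyte, the absorptive cell of the ileum. All 20 villus marker genes had rows and 19 were tested, and their summed level was 4252 to 9380 CPM in dIEC and 2761 to 10677 CPM in WT, with 10677 CPM in WT replicate 8 and 9380 CPM in dIEC replicate 1 (exact permutation p = 0.0823, adjusted p over 13 lists 0.338). The summed level of 12 fibroblast genes was 360 to 621 CPM in dIEC and 376 to 1166 CPM in WT, with the 360 CPM in dIEC replicate 1 and the 376 CPM in WT replicate 8 (exact permutation p = 0.0563). WT replicate 8 was the highest of WT for 28.1% of all genes tested. The part of tissue content in the Saa1 values was measured only through the ratios that follow and the fits with marker genes given with Lypd8. Relative to 1000 CPM of the 15 epithelial markers, a scale that does not depend on library scaling, Saa1 stood at 47.2 ± 32.3 in dIEC and 19.7 ± 25.01 in WT. The difference of the mean log2 ratio was 1.69 (exact permutation p = 0.0303), but without dIEC replicate 1 or 11, or WT replicate 2, 4, 7 or 12, the exact permutation p was 0.0556 to 0.0667, with differences of 1.36 to 1.70. Relative to the villus markers the difference of the mean log2 ratio of Saa1 was 1.21 (exact permutation p = 0.0303).

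Saa2, whose protein is the closest relative of the Saa1 product, was counted 24, 8, 8, 3 and 15 times in dIEC replicates 1, 3, 5, 6 and 11, and 2, 6, 2, 15, 2 and 4 times in WT replicates 2, 4, 7, 8, 9 and 12. Its highest WT library was again replicate 8, and its highest dIEC libraries were replicates 1 and 11, as for Saa1. The level was 1.71 ± 1.16 CPM in dIEC and 0.641 ± 0.684 CPM in WT (SD, n = 5 and 6, exact permutation p = 0.0866). Without WT replicate 8, left out for its own high values, the difference was 1.34 CPM (exact permutation p = 0.0238). Saa2 made up 0.914% of the summed Saa1 and Saa2 counts (95% exact Clopper-Pearson interval 0.735 to 1.12%, counting error only), and 0.427 to 2.19% in single libraries. The ratio of Saa1 to Saa2 counts was 118 ± 54.3 in dIEC and 104 ± 74.9 in WT (exact permutation p = 0.524).

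The coding sequences of Saa1 and Saa2, 369 bases each, match at 351 bases (95.1%), and 13.3% of the 557 windows of 50 bases in the Saa2 transcript are also in Saa1. Of the 560 windows of Saa1, 74 are shared with Saa2 and 9 with Saa3, and no window of Lypd8, Lcn2 or Pla2g5 is shared with another gene. How reads that fit several genes were counted is not given in the sources used here, so the split between Saa1 and Saa2 is uncertain, while Saa1 is little affected by the few Saa2 counts. The cluster's pseudogene Saa-ps had 2 counts, both in dIEC replicate 1. Saa4, also of the cluster, was on a gene list here but not among the genes tested, and it is not in the shares of Saa counts.

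Saa3, which in mice is made mainly outside the liver by macrophages, fat and epithelium, had 18.1, 2.69, 3.67, 3.01 and 2.76 CPM in dIEC replicates 1, 3, 5, 6 and 11, against 0.426, 1.05, 2.55, 4.25, 3.48 and 0.940 CPM in WT replicates 2, 4, 7, 8, 9 and 12. Replicate 1 stood 4.93-fold above the next dIEC library, and the other dIEC libraries lay within the WT range. Saa3 had a log2 fold change of 1.48 (standard error 0.65, edgeR adjusted p = 0.449), and the exact permutation p of the mean CPM was 0.126. Without dIEC replicate 1 the mean was 3.03 ± 0.443 CPM in dIEC (n = 4) against 2.11 ± 1.55 CPM in WT, and the log2 fold change was 0.47 (edgeR adjusted p = 0.766). The summed level of 16 macrophage and monocyte genes was 124 to 215 CPM in dIEC, the highest in replicate 1, and 106 to 193 CPM in WT, and its part in the Saa3 values was not tested. The ratio of Saa3 to Saa1 plus Saa2 was 0.0307 ± 0.0123 in dIEC and 0.0646 ± 0.0745 in WT (exact permutation p = 0.519), the highest of all in WT replicate 7 at 0.209.

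Lcn2 showed 1 high library. It had 15.03, 0.898, 2.65, 1.90 and 1.52 CPM in dIEC replicates 1, 3, 5, 6 and 11, from 104, 8, 13, 12 and 11 counts. In WT replicates 2, 4, 7, 8, 9 and 12 it had 1.99, 2.09, 0.887, 1.59, 1.32 and 1.07 CPM, from 8 to 20 counts. Apart from dIEC replicate 1, at 5.68-fold above the next library, the groups spanned nearly the same range. Lcn2 averaged 4.40 ± 5.98 CPM in dIEC and 1.49 ± 0.487 CPM in WT, and without that library 1.74 ± 0.732 CPM in dIEC, 1.17-fold the WT mean. Its log2 fold change was 1.55 (standard error 0.68, edgeR adjusted p = 0.449), against 0.15 without dIEC replicate 1 (edgeR adjusted p = 0.918), and the exact permutation p was 0.242. Neutrophils store Lcn2 in their granules. Of 15 neutrophil genes 12 had rows and none passed the filter, and their summed level was 2.25 to 6.07 CPM in dIEC and 2.79 to 4.18 CPM in WT. dIEC replicate 1 had the 6.07 CPM, with 2 counts of S100a8, 4 of S100a9, 3 of Ngp, 0 of Camp, 0 of Ly6g and 21 of Ltf.

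Lypd8 was the most abundant of the 6 genes. It had 1832, 671, 718, 456 and 1155 CPM in dIEC replicates 1, 3, 5, 6 and 11, against 428, 393, 436, 684, 707 and 514 CPM in WT replicates 2, 4, 7, 8, 9 and 12. Replicates 1, 5 and 11 lay above every WT library, and replicate 6 lay below the WT median of 475 CPM. The mean was 967 ± 546 CPM in dIEC and 527 ± 136 CPM in WT (SD, n = 5 and 6, exact permutation p = 0.0693). For Lypd8 the log2 fold change was 0.87 (standard error 0.32, 95% interval 0.20 to 1.55, edgeR adjusted p = 0.427), and without dIEC replicate 1 it was 0.51. Relative to 1000 CPM of epithelial markers Lypd8 stood at 260 ± 138 in dIEC and 172 ± 24.7 in WT (exact permutation p = 0.169). Relative to the villus markers the difference of the mean log2 ratio was -0.017 (exact permutation p = 0.939). A fit that held the smooth muscle markers constant gave Lypd8 a log2 fold change of 0.30, against 0.36 for Saa3, 0.46 for Lcn2, 0.56 for Saa1 and 0.85 for Pla2g5 (edgeR adjusted p = 0.996 for each). Holding the epithelial markers constant instead gave 0.56 for Lypd8, 0.76 for Pla2g5, 0.96 for Saa1, 1.19 for Saa3 and 1.87 for Lcn2. In either fit the unadjusted p was under 0.05 for 1 of the 5 members (Pla2g5). That held for 289 of the 15911 genes in that direction with the muscle markers and 335 with the epithelial markers. The summed smooth muscle markers were 1726 to 4198 CPM in dIEC, lowest in replicate 1, and 3017 to 6171 CPM in WT.

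Pla2g5 was the member whose dIEC libraries lay closest together. It had 4.91, 4.60, 4.48, 5.86 and 3.04 CPM in dIEC replicates 1, 3, 5, 6 and 11, against 1.13, 1.67, 1.44, 2.79, 4.70 and 2.15 CPM in WT replicates 2, 4, 7, 8, 9 and 12. The dIEC libraries lay above all WT libraries but replicate 9, whose 50 counts were the most of any library. The mean was 4.58 ± 1.02 CPM in dIEC and 2.31 ± 1.30 CPM in WT, from 8 to 50 counts per library. The exact permutation p was 0.0173, not adjusted over the members. Its log2 fold change was 0.95 (standard error 0.31, 95% interval 0.28 to 1.61), and edgeR's unadjusted p of 0.00849 gave an adjusted p of 0.427. Over the 23 alternative settings it ran from 0.74 to 1.31, the highest without WT replicate 9, and its edgeR, DESeq2 or limma unadjusted p was at most 0.0394. Relative to 1000 CPM of epithelial markers Pla2g5 stood at 1.29 ± 0.412 in dIEC and 0.741 ± 0.369 in WT, a log2 difference of 0.85 (exact permutation p = 0.0519). Relative to the villus markers that difference was 0.36 (exact permutation p = 0.416). Scaled by library size alone its CPM difference was 1.73 (exact permutation p = 0.0563), and without WT replicate 8 and dIEC replicate 1 it was 2.27 (exact permutation p = 0.0635).

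Pla2g2a, the Paneth cell phospholipase A2, lies inside the span of Pla2g5 on the other strand, at chromosome 4 from 138831857 to 138835186, and shares 0 exon bases with it. It had 11.2 ± 3.08 CPM in dIEC and 7.69 ± 3.70 CPM in WT (log2 fold change 0.52, standard error 0.32, edgeR adjusted p = 0.549). The annotation calls Pla2g2a a polymorphic pseudogene, since some laboratory strains carry a broken copy. The kit was directional, but the strand setting of the counting is not given in the sources used here. Paneth cell markers summed to 1951 to 4012 CPM in dIEC and 1701 to 4993 CPM in WT (exact permutation p = 0.814).

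Per kilobase of transcript the order of levels was the same in both groups. In CPM per kilobase Lypd8 stood at 884 ± 500 in dIEC and 482 ± 125 in WT, and Saa1 at 287 ± 203 in dIEC and 121 ± 188 in WT. Then came Saa3 (10.9 in dIEC, 3.81 in WT), Pla2g5 (6.63 in dIEC, 3.35 in WT), Lcn2 (4.81 in dIEC, 1.63 in WT) and Saa2 (2.82 in dIEC, 1.06 in WT). Lypd8 was above Saa1, and Saa1 above Saa3, in all 5 dIEC and all 6 WT libraries. Saa3 was above Pla2g5 in 3 of 5 dIEC and 2 of 6 WT libraries, so that pair was not ordered beyond the spread. Lcn2 was above Saa2 in 3 of 5 dIEC and 5 of 6 WT libraries.

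**Figure D2:**
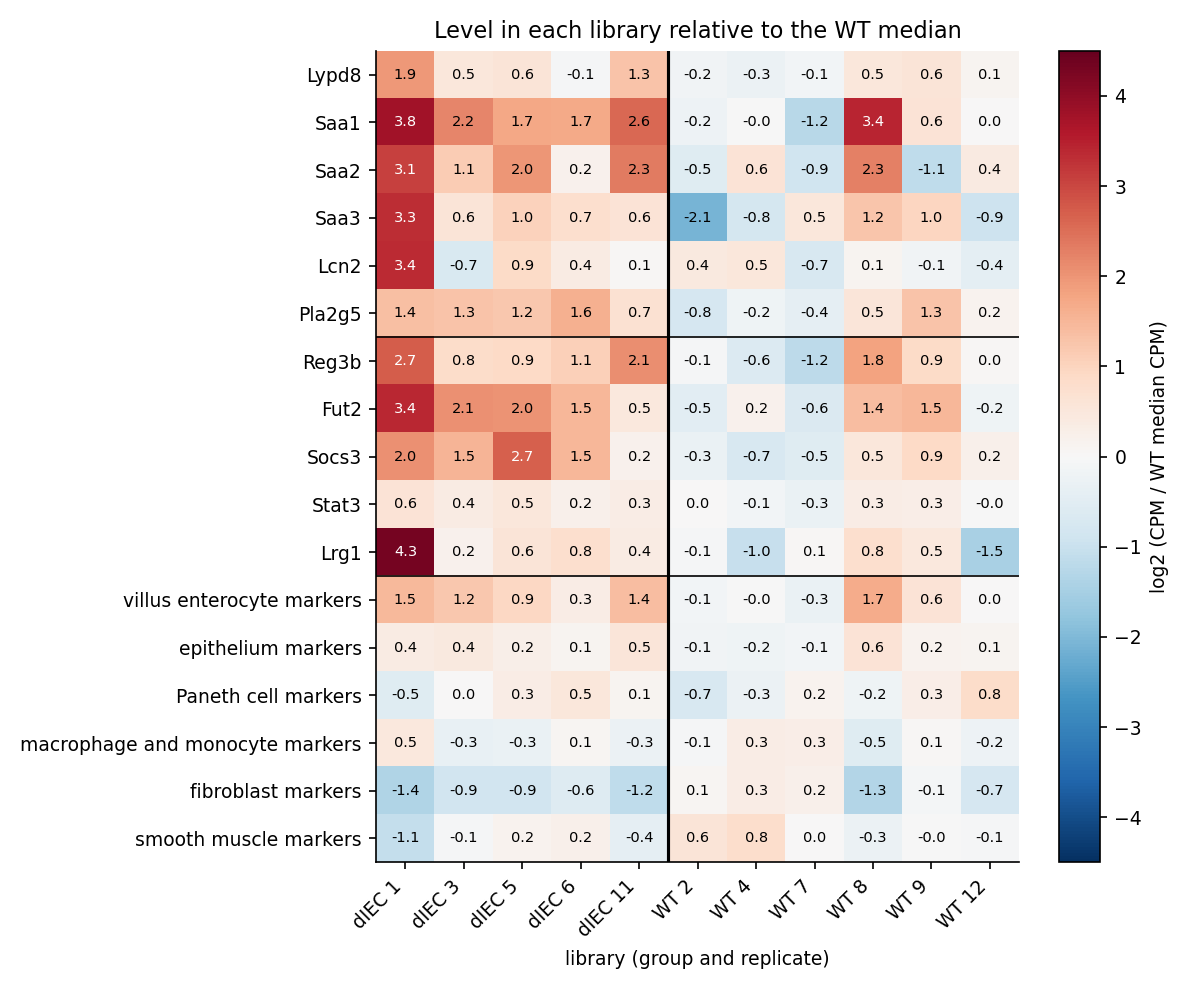
Log2 of the CPM in each library over the WT median CPM, for the 6 genes (top), 5 related genes (middle) and the summed CPM of 6 marker lists (bottom), dIEC libraries on the left. Replicate 1 of dIEC and replicate 8 of WT have high Saa1 together with high villus enterocyte markers and low fibroblast markers.

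The spread within a group was wide for several of these genes, but not for every gene in both groups. Among the genes tested, the standard deviation of log2 CPM within dIEC was at percentile 99.7 for Lcn2, 99.4 for Saa3, 97.6 for Saa1, 96.5 for Lypd8 and 59.9 for Pla2g5. Within WT it was at percentile 99.9 for Saa1, 99.6 for Saa3, 96.3 for Pla2g5, 79.96 for Lcn2 and 72.4 for Lypd8. The percentiles are over all genes tested, without matching for level. Without dIEC replicate 1 the dIEC values were 1.74 ± 0.732 CPM for Lcn2 and 3.03 ± 0.443 CPM for Saa3 (SD, n = 4). dIEC replicate 1 was the highest of the 11 libraries for 5 of the 6 members, and for 17.3% of all genes tested. The heat map of levels relative to the WT median shows these libraries beside the marker lists.

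Across the 11 libraries all 15 pairs of the 6 genes had a Pearson r of log2 CPM above 0, from 0.31 to 0.87. The 11 points share library scaling and the 2 groups. Saa1 and Saa2 were the closest pair, with r = 0.87 (permutation p = 0.00081, adjusted over the 15 pairs 0.0121) and Spearman rho = 0.84 (permutation p = 0.00232, adjusted 0.0228). For that pair r was 0.79 without dIEC replicate 1 and WT replicate 7, 0.85 within WT (n = 6) and 0.80 with each group centred on its mean. Saa2 had only 2 to 24 counts per library, and the split of reads between Saa1 and Saa2 is uncertain. The part of that split in the r of Saa1 and Saa2 was not tested. Lypd8 and Saa1 had r = 0.78 (permutation p = 0.00300, adjusted 0.0126), rho = 0.82 (permutation p = 0.00304, adjusted 0.0228) and r = 0.68 without dIEC replicates 1 and 11. Lypd8 and Lcn2 had r = 0.66 (permutation p = 0.0492, adjusted 0.0739) and rho = 0.20 (permutation p = 0.557, adjusted 0.557), and r = -0.067 without dIEC replicates 1 and 11, so that value rested on those libraries. Of the 15 pairs 9 had an adjusted Pearson p under 0.05 and 4 an adjusted Spearman p under 0.05. With CPM scaled by library size alone, of those 9 the pair of Saa1 and Saa2 kept an adjusted p under 0.05 (r = 0.85).

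Many genes of the ileum followed an order of libraries like that of Saa1 or of Lypd8. Among 10261 genes with a mean of at least 5 CPM, those with the highest Spearman rho to Saa1 over the 11 libraries were Gdpd1 (rho 1), Cobl (0.99), a gene of the brush border, and Cyp3a13 (0.99), an intestinal cytochrome P450. Lypd8 ranked 889th by likeness to Saa1, and Saa1 387th by likeness to Lypd8. Those most like Lypd8 were Atp10b (0.96), the tight junction gene Cldn3 (0.95) and Dnm1 (0.95). Pla2g5 was most like Ric8a (0.91), Gm44950 (0.90) and Xbp1 (0.89), a transcription factor of secretory cells. Saa3 was most like D330041H03Rik (0.96), Tmed7 (0.94) and Traf6 (0.93), and Lcn2 most like Tcp11l2 (0.90), Tshz1 (0.88) and Topors (0.85). Saa2, counted few times, was most like Gm45606 (0.95), Gm11605 (0.94) and Sox13 (0.94). The genes named as most like each member were picked as the highest of all those compared. Their rho values are therefore high by selection and were not tested.

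**Figure D3:**
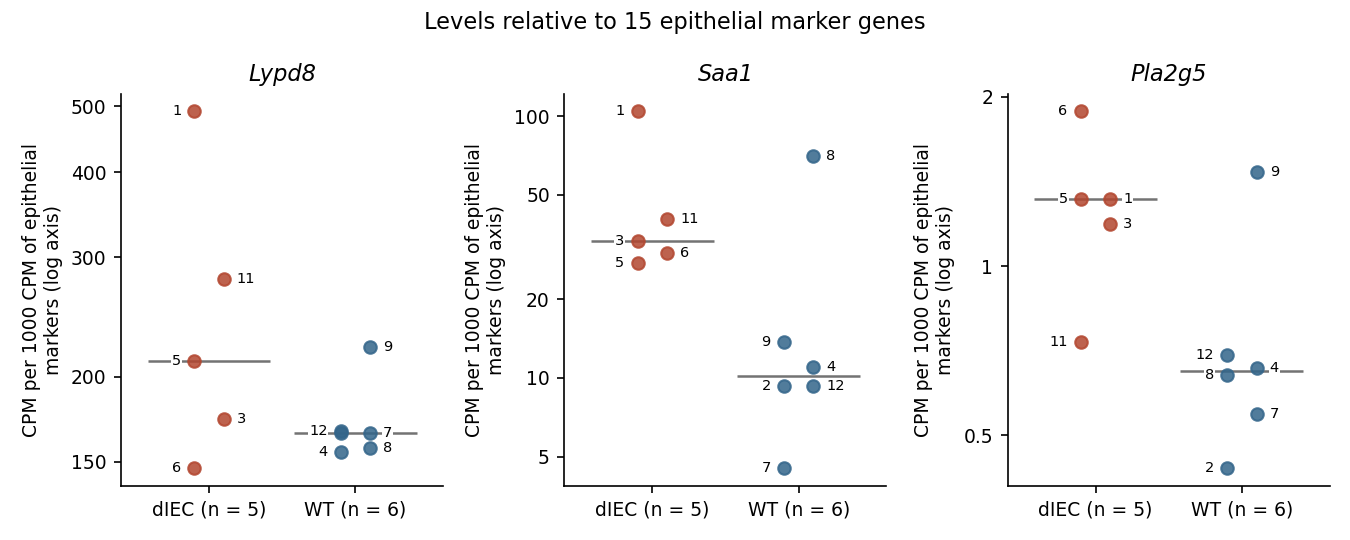
CPM of Lypd8, Saa1 and Pla2g5 per 1000 CPM of 15 summed epithelial marker genes on log axes; points are libraries with replicate numbers and lines are group medians. For Saa1 all dIEC libraries lie above 5 of the 6 WT libraries on this scale too, and WT replicate 8 stands apart.

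The pathway upstream of these genes was measured through 37 cytokine and signalling genes, of which 23 passed the filter. Il22, Il17a, Il17f, Il1b, Il6, Tnf and Ifng, which encode the cytokines themselves, did not pass it. None of the 23 passed the adjusted threshold, with an unadjusted p under 0.05 for 4 above 0 and 1 below 0 (background 4.87% and 5.79%) and a median log2 fold change of 0.16. Socs3, a feedback inhibitor that STAT3 induces, had 33.8, 23.8, 52.5, 22.9 and 9.25 CPM in dIEC replicates 1, 3, 5, 6 and 11, against 6.67, 5.02, 5.65, 11.7, 15.3 and 9.67 CPM in WT replicates 2, 4, 7, 8, 9 and 12. Of the dIEC libraries 4 lay above every WT library, all but replicate 11. Socs3 had a log2 fold change of 1.64 (standard error 0.41, edgeR adjusted p = 0.427). Stat3 had 81.1 ± 8.99 CPM in dIEC and 63.0 ± 10.6 CPM in WT (log2 fold change 0.36, edgeR adjusted p = 0.427). On the side of lower values stood Il1r1, the receptor of interleukin 1 (-0.61), and the flagellin receptor Tlr5 (-0.41).

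Of 30 other inducible defence genes 29 had rows and 21 were tested, none passed the adjusted threshold, and 3 had an unadjusted p under 0.05, all above 0 (background 4.87%), with a list median of 0.26. They were Fut2, which fucosylates the ileal surface under interleukin 22 (20.6 ± 15.6 CPM in dIEC, 6.63 ± 4.47 CPM in WT, log2 fold change 1.62), and the bactericidal lectins Reg3a (1.74) and Reg3b (1.23). Reg3b, the most abundant gene of the list, had 8517, 2331, 2418, 2722 and 5525 CPM in dIEC replicates 1, 3, 5, 6 and 11, against 1257, 857, 576, 4610, 2376 and 1346 CPM in WT replicates 2, 4, 7, 8, 9 and 12. As for Saa1, WT replicate 8 was its highest WT library and dIEC replicate 1 its highest dIEC library. The Reg3 genes are close copies of each other, so the split of reads among them is uncertain. Reg4 (-0.64) and Lyz2 (-0.19), a lysozyme of macrophages, had log2 fold changes below 0 with unadjusted p of 0.238 and 0.515 by edgeR.

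Most classical acute phase genes of the liver had no row or were too low to test in the ileum. Of 26 such genes 20 had rows and 9 passed the filter. None was called, and 1 had an unadjusted p under 0.05, above 0 (background 4.87%). That gene was Lrg1, a secreted leucine-rich glycoprotein, with 29.0 CPM in dIEC replicate 1 and 1.68 to 2.53 CPM in the other dIEC libraries, against 0.537 to 2.52 CPM in WT (log2 fold change 2.34, standard error 0.84, edgeR adjusted p = 0.427). Its pattern of 1 high library was that of Lcn2 and Saa3. Complement C3 had 167 ± 82.7 CPM in dIEC and 192 ± 74.2 CPM in WT. Alb, the defining liver gene, had 1 count in dIEC and 24 in WT.

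The partners of each product gave no called gene either. Of 14 receptors and lipid partners of SAA 8 were tested, with a median log2 fold change of -0.0049. Among them Rbp2, the retinol carrier of enterocytes, had 23.4 ± 11.8 CPM in dIEC and 10.3 ± 7.10 CPM in WT (log2 fold change 1.197, edgeR adjusted p = 0.428). Scarb1, a lipoprotein receptor, had 3.87 ± 0.510 CPM in dIEC and 5.55 ± 1.70 CPM in WT (-0.53, edgeR adjusted p = 0.436). The receptors Fpr1 and Fpr2 did not pass the filter. Of 17 lipocalin and iron genes 11 were tested, none at an unadjusted p under 0.05, with a median of -0.011. The iron exporter Slc40a1 had 43.9 ± 26.8 CPM in dIEC, with 91.8 CPM in replicate 1, and 31.8 ± 7.67 CPM in WT.

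Of 25 phospholipase and eicosanoid genes 18 were tested, with a median log2 fold change of -0.14 and 5 above 0 against 13 below 0. Pla2g12b, a secreted phospholipase homologue of enterocytes and liver, had 11.9 ± 4.60 CPM in dIEC and 6.36 ± 3.89 CPM in WT (0.90, edgeR adjusted p = 0.433). The cytosolic Pla2g4a had 6.67 ± 2.74 CPM in dIEC and 10.3 ± 3.06 CPM in WT (-0.63, edgeR adjusted p = 0.440). Of 29 Ly6/PLAUR genes, the family of Lypd8, 7 were tested, and Ly6a (0.50), Ly6e (0.27) and Cd59a (-0.69) had an unadjusted p under 0.05 (background 4.87% above 0 and 5.79% below 0). Of 10 oxidative defence genes 8 were tested with none called and a median of 0.25, and Duox2 had 270 ± 111 CPM in dIEC and 214 ± 88.1 CPM in WT.

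**Figure D4:**
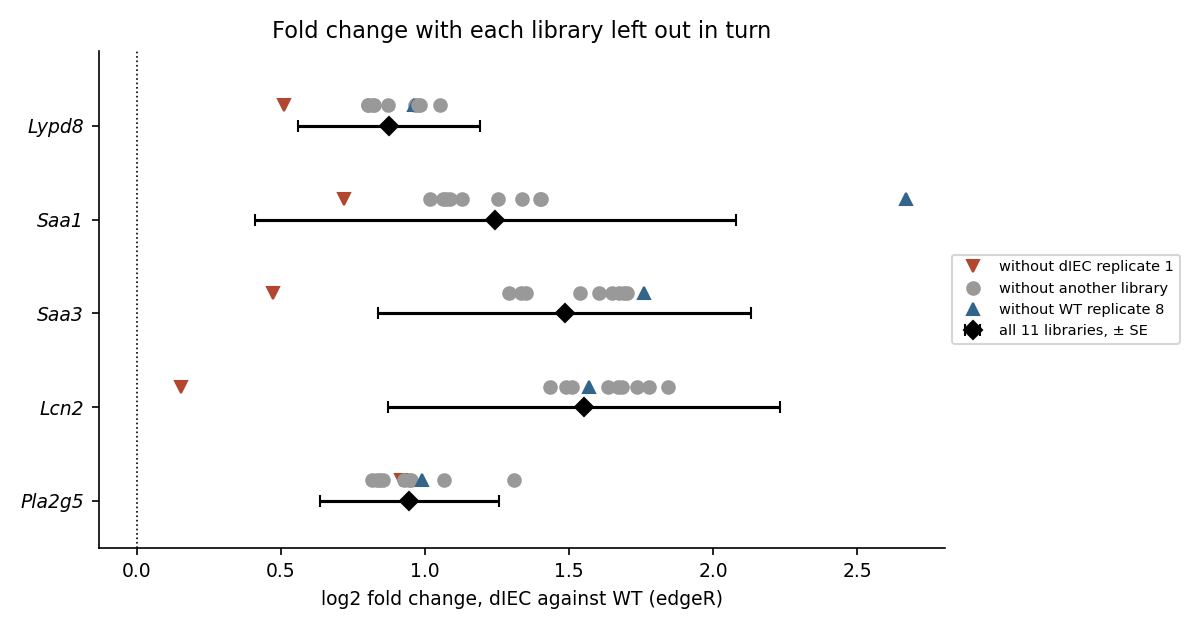
Log2 fold change, dIEC against WT, by edgeR for the 5 tested genes: diamonds with bars are the estimate from all 11 libraries ± its standard error, other marks leave out 1 library each. Leaving out dIEC replicate 1 brings Lcn2 to 0.15 and Saa3 to 0.47, leaving out WT replicate 8 brings Saa1 to 2.67, and all values stay above 0.

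The plot of fold changes with each library left out sets the members side by side. Pla2g5 ran from 0.82 to 1.31 and Lypd8 from 0.51 to 1.05. Saa3 ran from 0.47 to 1.76 and Lcn2 from 0.15 to 1.84, with both low ends given by dIEC replicate 1. Saa1 ran from 0.72 to 2.67, with dIEC replicate 1 and WT replicate 8 at the ends. The ratio of Lypd8 to Lcn2 was 428 ± 303 in dIEC and 390 ± 150 in WT (exact permutation p = 0.866).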

How the data were processed

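The 11 libraries, 5 dIEC and 6 WT, are total RNA of distal ileum, made with a directional NEBNext Ultra kit after Trizol extraction, per the labels' protocols. Reads were aligned with TopHat2 to mm10, per the submitters' processing notes. The sources used here do not give the counting tool, its strand setting or how it treated multi-mapping reads. The authors deposited 1 table of raw counts per gene, in whole numbers with no normalization, and 1 of its 31169 rows named no gene (0.00778 to 0.0147% of a library's counts) and was left out. Of the symbols 99.2% occur in GENCODE vM21.

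Each library was taken as 1 mouse, since the design text gives 5 and 6 mice. That text writes Cre- for both groups, so groups follow each sample's genotype label. Replicates carry the number in the title. Cage, litter and batch are not given, so p-values measure only how these libraries vary. Every pair of a group differed by more than counting noise, with a chi-square of 10.7 to 75.6 per degree of freedom.

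The tests ran in R 4.3.3 with edgeR 4.0.16: filterByExpr by group (15911 genes kept), TMM factors, robust quasi-likelihood F test and Benjamini-Hochberg adjustment over all genes, at 0.05. The analysis was tested on simulated data. Log2 fold changes are dIEC against WT. CPM uses the TMM-scaled library size. DESeq2 1.42.0, limma 3.58.1, other scalings and filters, covariates and each library left out were alternatives. Single values were compared by two-sided exact permutation over 462 splits, and correlations by 100000 permutations of log2 CPM (prior count 2). The exact permutation p-values of members and ratios were not adjusted over members, scales or ratios. The interval of the Saa2 share covers counting error only. Intervals of log2 fold changes come from the standard error of the edgeR fit, which includes the spread between libraries. Genes named from a list are those with the 2 lowest edgeR p-values on each side and the highest mean CPM, together with the 3 genes most like each member. A few others of the lists are named after their values were seen. Members and lists were chosen with earlier results of these data known.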

Additional observations from a re-analysis of the deposited data

Results flagged for a closer look

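Of 44 groups of 5 or 6 values checked with Dixon's criterion, 8 held a library far from the rest of its group. The criterion is set to flag about 1 in 20 among independent, normally distributed groups. These groups share libraries and related measures, so the 8 cannot be set against that rate. Among dIEC libraries the flagged ones were replicate 1 for Saa1 (389 CPM, the nearest other at 169), for Saa3 (18.1 CPM, the nearest at 3.67) and for Lcn2 (15.03 CPM, the nearest at 2.65). Among WT libraries replicate 8 stood apart for Saa1 (307 CPM, the nearest at 43.8) and Saa2 (1.99 CPM, the nearest at 0.627). The same library stood apart for the summed epithelial markers (4357 CPM, the nearest at 3198) and the summed villus enterocyte markers (10677 CPM, the nearest at 5194). WT replicate 7 stood apart for the ratio of Saa3 to Saa1 plus Saa2 (0.209, the nearest at 0.0791), from 23 counts of Saa3 and 108 of Saa1.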

How the results depend on the processing

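All 5 tested members kept a log2 fold change above 0 under 23 alternatives, and the adjusted p ran from 0.0421 (Saa1 without WT replicate 8) to 0.9998. Genes called higher numbered 1, against 9 by DESeq2 and 7 without WT replicate 8 and dIEC replicate 1 (a setting chosen after seeing the data), and 1 to 213 with 1 library left out, the highest without WT replicate 8. Genes called lower numbered 0, against 1 with library size alone, 2 by DESeq2 and 0 to 106 with 1 library left out. Library size alone moved the median log2 fold change of all genes to -0.22. The log2 fold change of Saa1 ran from 0.72 to 2.67 with 1 library left out.

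The CPM difference of Saa1 on the log2 scale was 1.95. Without WT replicate 8 and dIEC replicate 1 the CPM differences were 93.9 for Saa1, 0.897 for Saa2 and 2.27 for Pla2g5, and with library size alone 1.73 for Pla2g5. With 1 library left out they ran from 223 to 567 CPM for Lypd8, 47.3 to 147 CPM for Saa1, 0.627 to 1.38 CPM for Saa2 and 1.94 to 2.74 CPM for Pla2g5. Log2 ratios to epithelium then ran from 0.21 to 0.64 for Lypd8, 1.36 to 2.19 for Saa1, 1.03 to 1.69 for Saa2, -0.075 to 0.96 for Lcn2 and 0.70 to 1.07 for Pla2g5, and the log2 ratio of Lypd8 to Lcn2 from -0.38 to 0.28. That ratio, -0.087 over all libraries, lay above 0 without dIEC replicate 1 (0.28) or 6 (0.037), without WT replicate 7 (0.0022) or 9 (0.028), and without both WT replicate 8 and dIEC replicate 1 (0.33). Lypd8 relative to villus markers was -0.017, and relative to epithelium 0.18 without both, and Lcn2 relative to epithelium was -0.075 without dIEC replicate 1 and -0.15 without both. With library size alone r was 0.65 for Lypd8 and Saa1, 0.68 for Lypd8 and Saa2, 0.74 for Lypd8 and Saa3, 0.68 for Saa1 and Saa3, 0.56 for Saa1 and Pla2g5, 0.57 for Saa2 and Saa3, 0.53 for Saa2 and Lcn2 and 0.64 for Saa3 and Pla2g5. The cause of these shifts was not tested.

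Saa2, Saa3, Lcn2 and Pla2g5 rest on 2 to 125 counts per library. No paired analysis was made, since cage, litter and batch are not given.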

Other observations

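The genes that stood highest in dIEC replicate 1 over any other library were looked up after their values were seen, among 8380 genes with at least 50 counts there. BB123696 led at 56.4-fold the next library, then Lrg1 at 11.5-fold, the alcohol dehydrogenase gene Adh6a at 9.62-fold and B3galt5, a galactosyltransferase of the gut, at 7.69-fold. Lcn2 was the 7th at 5.68-fold and Saa3 the 12th at 4.25-fold, beside the metal-handling genes Slc30a10 (5.06-fold) and Mt2 (4.93-fold). Saa1 was 460th at 1.27-fold and Lypd8 141st at 1.59-fold.

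A phospholipase of the list, Pla2g4c, had the widest range over the 11 libraries of 10262 genes with a mean of at least 5 CPM, 406-fold. It had 1.16, 470, 31.2, 13.1 and 23.6 CPM in dIEC replicates 1, 3, 5, 6 and 11, against 5.53, 329, 267, 1.46, 215 and 44.2 CPM in WT replicates 2, 4, 7, 8, 9 and 12 (log2 fold change -0.41, standard error 1.43, edgeR adjusted p = 0.939). The gasdermin C genes Gsdmc2, Gsdmc3 and Gsdmc4 on chromosome 15, close copies among which reads may be shared, had the next widest ranges. Gsdmc2 had 0.578, 61.6, 12.8, 9.81 and 12.7 CPM in the same dIEC libraries, against 16.7, 99.8, 188, 4.25, 95.7 and 42.2 CPM in the WT libraries. Both genes were high in dIEC replicate 3 and in WT replicates 4, 7 and 9, and lowest in dIEC replicate 1 and WT replicate 8, the 2 libraries with the highest Saa1. Saa1 had the 17th widest range, 32.4-fold.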
